A study of Homo sapiens with 58 samples.

Results

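The primitive streak homeobox genes described here are MIXL1, GSC, LHX1, OTX2 and HHEX, chosen by their symbols from the 19084 genes listed in the deposited tables, where all 5 were found. They were followed in H1 cells, an established wild-type human embryonic stem cell line at passages 30 to 40, on the way to somites, the blocks of mesoderm beside the neural tube. RNA-seq of total RNA from wells of multiwell plates gave 12 daily libraries, 3 on each of 4 days, and 46 libraries of a presomitic mesoderm time course, with 23 sampling times at steps of 30 min between 30 and 690 min and 2 libraries at each. Day0 was undifferentiated stem cells kept in E8, a defined stem cell medium. Day1, labelled mesendoderm, had spent 24 h in E8 with activin A at 100 ng/mL, which signals through the nodal receptors, and the GSK3 inhibitor CHIR99021 at 3 µM, which activates Wnt signalling. Day2, labelled presomitic mesoderm, had spent another 24 h in E6, which is E8 without FGF2 and TGFβ1, with CHIR99021 kept at 3 µM, FGF2 and the BMP antagonist NOGGIN at 100 ng/mL each, and A83-01, an inhibitor of the activin and nodal receptors, at 2 µM. Day3 was labelled somite, and the somite medium was E6 with the MEK inhibitor PD0325901 at 1 µM, the Wnt inhibitor IWR1 at 2.5 µM, A83-01 at 2 µM and NOGGIN at 100 ng/mL. All groups share one cell line and one genotype, and day, medium and time in culture cannot be told apart. The labels give neither the medium nor the starting moment of the course, and do not say whether replicates were separate cultures, so the spread behind each p-value is that between libraries and could be purely technical.

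Homeobox genes encode transcription factors that bind DNA through a homeodomain. In the early embryo nodal and Wnt signals switch on MIXL1 in the primitive streak, where cells leave the epiblast to become mesoderm and endoderm, and strong nodal signalling at the front of the streak switches on the organizer genes GSC and LHX1. OTX2 is already made in the epiblast and stem cells and is later kept in the anterior embryo and forebrain, and HHEX marks anterior endoderm and blood and vessel precursors. The homeodomains of GSC and OTX2 prefer the letters TAATCC, a preference first described for the fly protein bicoid.

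The stretch just before the RNA start is shown for MIXL1 and GSC, the pair with called changes in opposite directions on Day1 and Day2, and for OTX2, which followed another course. RefSeq windows of 250 bases upstream of the start were at hand for 4 of the 5 genes, in 5 windows of build GRCh38.p14, and each window is written along its gene's strand. Capitals mark every match to the motifs searched on both strands, and no match overlapped another. The motifs were TAATCC, as above, and TAATTA for other homeodomains. CAGAC stood for SMAD proteins and TGTNNATT for FOXH1, their DNA-binding partner in nodal signalling, TCACAC for T-box proteins, CTTTGA for TCF and LEF proteins of the Wnt pathway, and TATAAA for the TATA box.
MIXL1, chr1:226223414-226223663, plus strand: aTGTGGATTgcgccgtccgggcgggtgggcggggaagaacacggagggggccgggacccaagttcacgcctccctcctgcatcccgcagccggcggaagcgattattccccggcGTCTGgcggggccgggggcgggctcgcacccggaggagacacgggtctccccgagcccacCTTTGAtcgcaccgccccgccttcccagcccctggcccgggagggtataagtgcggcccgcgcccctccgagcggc
GSC, chr14:94770114-94770363, minus strand: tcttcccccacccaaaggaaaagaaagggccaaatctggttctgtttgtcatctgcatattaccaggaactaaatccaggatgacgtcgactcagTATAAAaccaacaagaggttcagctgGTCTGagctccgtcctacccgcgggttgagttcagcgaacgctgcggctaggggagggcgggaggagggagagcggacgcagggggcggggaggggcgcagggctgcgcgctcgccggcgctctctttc
OTX2, chr14:56810480-56810729, minus strand: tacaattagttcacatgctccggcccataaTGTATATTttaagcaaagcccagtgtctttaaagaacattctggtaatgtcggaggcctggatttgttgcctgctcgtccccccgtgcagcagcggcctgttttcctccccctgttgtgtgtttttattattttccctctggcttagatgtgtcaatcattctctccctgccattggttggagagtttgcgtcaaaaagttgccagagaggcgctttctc
Counting back from -1 at the last base before the start, the MIXL1 window held TGTNNATT from -249, CAGAC on the opposite strand (written GTCTG) from -136 and CTTTGA from -76. In the GSC window TATAAA began at -155 and CAGAC, again on the opposite strand, at -129. The printed OTX2 window held TGTNNATT from -220. A second OTX2 window, at chr14:56805668-56805917 and not printed, held TGTNNATT from -226 and CAGAC on the opposite strand from -41. The HHEX window held none of the 7 motifs. Neither homeodomain motif was found in the printed windows. Among 35116 such windows CAGAC was in 38%, CTTTGA in 11.2%, TATAAA in 10.7%, TCACAC in 9.9%, TGTNNATT in 9.88%, TAATCC in 5.62% and TAATTA in 4.35%, so a match to CAGAC is common and each is only a description of the letters.

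Levels are in CPM, a gene's expected count scaled by the total of expected counts in its library. Totals were 3.16 to 7.81 M counts per library over the days and 2.53 to 8.96 M over the course. A gene seen 0 times could still have 3 counts, so its upper limit lies at 0.384 to 0.949 CPM in the daily libraries and at 0.335 to 1.18 CPM in those of the course. The labels were checked against marker genes. The summed pluripotency genes were at 9526 to 10485 CPM on Day0, the streak gene T averaged 194 ± 43.8 CPM and EOMES 356 ± 41 CPM on Day1 (SD, n = 3), the summed presomitic list reached 322 to 627 CPM on Day2 and the summed somite list 950 to 1243 CPM on Day3. The summed presomitic list was still at 277 to 358 CPM on Day3, which overlapped Day2, so this sum does not tell Day2 from Day3. MESP2 and RIPPLY2 of the presomitic list were at 0 counts on Day2, and PAX1 of the somite list on Day3. Day0 replicate 1 stood apart from the other Day0 libraries, with 167 CPM against 25.2 and 45.2 CPM in the summed anterior neural list and 56.7 CPM against 8.83 and 11.9 CPM in the somite list. That library held 7 of 7 Day0 counts of MIXL1, 21 of 21 of GSC, 24 of 34 of LHX1 and 38 of 39 of HHEX, so the main results against Day0 are also given without it. Leaving it out lowers the Day0 level of these genes by that choice. Their folds and calls without it are therefore a description and no test.

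On Day1 MIXL1 and GSC rose above Day0 and on Day2 both fell below Day1, while LHX1 had its highest levels on Day1 without passing the test. OTX2 was highest on Day2, and HHEX had few counts, at most 4.97 CPM in any daily library. A gene was called between 2 days at an adjusted p under 0.05 in edgeR's quasi-likelihood test and a log2 fold change of at least 1 in either direction. On Day1 against Day0 2 of the 5 genes were called higher and 0 lower, where 2.72% of all 12765 genes tested were called higher and 5.18% in either direction. At an unadjusted p under 0.05, 4 were higher and 0 lower, and DESeq2 called 3 higher and 0 lower. All shares of all genes given are of edgeR calls. Shares at an unadjusted p or in DESeq2 are not reported here, so such numbers of members have no like share beside them. On Day2 against Day1 0 were called higher and 2 lower, where 3.58% of all genes were called higher, 8.16% lower and 11.7% in all, and at an unadjusted p under 0.05 the numbers were again 0 and 2, with 0 and 1 called by DESeq2. On Day3 against Day2 only MIXL1 was called, lower, where 9.03% of all genes were called higher, 4.03% lower and 13.1% in all. Any change over the 4 days was called for 3 of the 5, MIXL1, GSC and OTX2, where 43.6% of all genes were called.

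**Figure D1:**
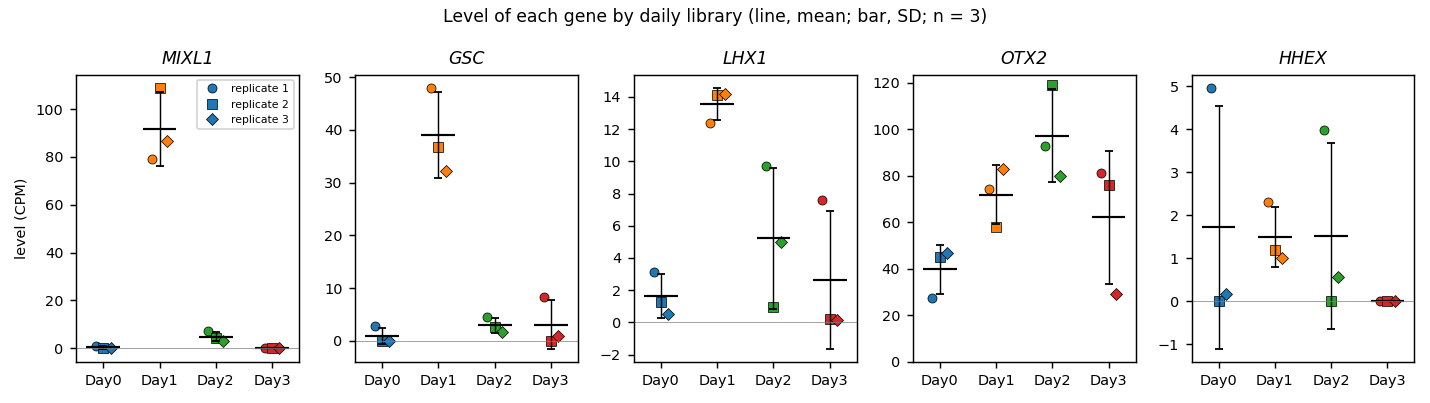
Each panel plots 1 gene, with the level in CPM on the vertical axis and the 4 days on the horizontal axis; points are libraries and bars the mean with its SD (n = 3). MIXL1, GSC and LHX1 are highest on Day1, at 91.7, 38.9 and 13.6 CPM on average, OTX2 is highest on Day2 at 97.3 CPM, and HHEX is low in every library.

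MIXL1 encodes a paired-type homeodomain factor of the streak. Its level in the 3 replicates was 0.915, 0 and 0 CPM on Day0, 79, 109 and 86.8 CPM on Day1, 7.13, 4.43 and 3.06 CPM on Day2 and 0, 0 and 0 CPM on Day3. Every Day1 library was above every library of the other days, and Day2 lay between Day1 and both ends without overlap.

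MIXL1 rose 247-fold on Day1 over Day0 (log2 fold change 7.95 ± 0.67 SE, adjusted p = 2.48e-06). The whole Day0 signal was 7 counts in a single library, and without that library the rise was at least 357-fold, against 3 counts over the remaining Day0 group. On Day2 MIXL1 fell 16.9-fold below Day1 (log2 -4.08 ± 0.52, adjusted p = 0.000168) and was still 14.6-fold above Day0 (log2 3.87 ± 0.71, adjusted p = 0.0011), or at least 18.6-fold without Day0 replicate 1. In Day3 libraries it had 0 counts, against 50 counts in Day2 libraries, at least 28.6-fold lower from 3 counts over the group (adjusted p = 0.000368). Against the 7 counts of Day0 the Day3 bound is at least 2.15-fold lower and the test did not pass (adjusted p = 0.0997). These are bulk libraries, in which fewer cells of a type and less RNA per cell cannot be told apart. Called changes were 0 higher and 0 lower among the 5 genes on Day3 against Day0 in edgeR, where 7.07% of all genes were called higher, 7.09% lower and 14.2% in all (0 higher and 2 lower at an unadjusted p under 0.05, and the same by DESeq2). Each MIXL1 call between days was kept when any 1 of the 12 libraries was left out.

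GSC encodes a homeodomain repressor of the organizer, first found in the frog. The replicates had 2.74, 0 and 0 CPM on Day0, 48, 36.7 and 32.2 CPM on Day1, 4.56, 2.53 and 1.67 CPM on Day2 and 8.35, 0 and 0.896 CPM on Day3. Day1 stood above all other libraries, the Day0 and Day2 libraries overlapped, and Day3 held both a library at 0 and one above every Day0 and Day2 library. Replicate 1 had the most GSC on each of the 4 days.

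GSC rose 38.8-fold on Day1 over Day0 (log2 5.28 ± 1.16, adjusted p = 0.00893), and at least 147-fold without Day0 replicate 1. It fell 11.9-fold on Day2 below Day1 (log2 -3.58 ± 1.07, adjusted p = 0.0276). That fall lost its call when any of 5 of the 12 libraries was left out, namely each Day1 library and Day2 replicates 2 and 3 (adjusted p = 0.0568 to 0.0855), and in DESeq2 (adjusted p = 0.129, where the alternatives ran from 0.000212 to 0.129). Neither Day2 (log2 1.70, adjusted p = 0.289) nor Day3 (log2 1.53, adjusted p = 0.372) was called against Day0, but without Day0 replicate 1 both were, with GSC at least 11.2-fold higher on Day2 (adjusted p = 0.0207) and at least 11.1-fold higher on Day3 (adjusted p = 0.0286). On Day3 replicate 1 held 44 GSC counts, replicate 2 held 0 and replicate 3 held 7. The Day3 result thus rests largely on its replicate 1, while replicate 1 was left out of Day0 alone. Leaving out Day0 replicate 1 removed every Day0 count of GSC, which by itself favours a call. Neither call without that library therefore tests a difference from Day0. Day3 against Day2 was not called (log2 -0.17 ± 1.08, adjusted p = 0.934).

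LHX1 encodes a LIM homeodomain factor of the organizer that works with the cofactors LDB1 and SSBP3. It had 3.14, 1.24 and 0.516 CPM on Day0, 12.4, 14.1 and 14.2 CPM on Day1, 9.69, 0.952 and 5 CPM on Day2 and 7.59, 0.221 and 0.128 CPM on Day3. The Day1 libraries lay close together above all others, while the Day2 libraries spread widely and on Day3 a single library held nearly all the counts.

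LHX1 was 8.24-fold higher on Day1 than on Day0 without passing the test (log2 3.04 ± 1.12, adjusted p = 0.112), and its any-change test did not pass either (adjusted p = 0.0855). The outcome depended on which libraries were in the fit and on the tool. Without Day3 replicate 1, the library at 7.59 CPM, the Day1 difference was called (adjusted p = 0.0307), as was any change (adjusted p = 0.00223), and Day3 was then 33-fold lower than Day2 on 2 counts against 55.01 (exact 95% counting interval 8.72 to 279, adjusted p = 0.0109). Without Day0 replicate 1 the Day1 difference stayed uncalled (adjusted p = 0.117). It passed in a fit of the Day1 and Day0 libraries alone (adjusted p = 0.0022) and in DESeq2 (adjusted p = 0.0398), and over all alternatives the adjusted p ran from 0.0022 to 0.655. An antisense gene overlaps LHX1 in the GENCODE 29 annotation, and whether strand was used in counting is not known here, so reads of the pair cannot be told apart.

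OTX2, a bicoid-type homeodomain factor, was expressed on all days. It had 27.4, 45.1 and 46.6 CPM on Day0, 74.4, 58 and 83 CPM on Day1, 92.9, 119 and 79.8 CPM on Day2 and 81.4, 75.9 and 29.2 CPM on Day3. All Day1 and Day2 libraries exceeded all Day0 libraries, and Day3 spread from the Day0 range into the Day2 range.

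OTX2 rose 2.77-fold on Day2 over Day0 (log2 1.47 ± 0.33, adjusted p = 0.00318), and it was the other member called higher there beside MIXL1, where 8.30% of all genes were called higher and 19.7% in all. This call was kept without any 1 library, with log2 fold changes of 1.26 to 1.64. The steps between were smaller than the call needs, at 0.88 ± 0.32 for Day1 over Day0 (adjusted p = 0.113), 0.59 ± 0.32 for Day2 over Day1 (adjusted p = 0.207) and -0.88 ± 0.32 for Day3 over Day2 (adjusted p = 0.0585). The last was called lower without Day2 replicate 3 (log2 -1.07, adjusted p = 0.0373) or without Day3 replicate 1 (log2 -1.14, adjusted p = 0.0393). Day3 was not called against Day0 (log2 0.59, adjusted p = 0.222).

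OTX2 moved with a group of genes that are copies or relatives of abundant genes, such as RPL10L, a copy of the ribosomal protein gene RPL10, and POTEE and POTEF, which carry actin sequence. An index of 7 such genes, chosen after their values were seen (RPL10L, POTEE, POTEF, SUMO4, PPIAL4G, HSPA1L and FLJ44635; mean centred log2 CPM), was -1.15, -1.16 and -0.80 on Day0, 0.31, -0.34 and 0.37 on Day1, 1.51, 1.46 and 0.95 on Day2 and 0.49, 0.57 and -2.22 on Day3. Its lowest library, Day3 replicate 3, is also the Day3 library with 29.2 CPM of OTX2. Across the 12 libraries OTX2 correlated with the index at r 0.94, and deviations from the day means at r 0.90, against 0.14 to 0.41 for the index with the other 4 genes. FLJ44635, POTEE and RPL10L of the index are also among the 5 genes most like OTX2 in these libraries, so this r is partly set by the choice of the index genes and is given as a description only. With the index as a covariate OTX2 on Day2 against Day0 was at log2 0.15 (adjusted p = 0.866) and any change at an adjusted p of 0.852, the highest values of all alternatives, whose lowest were 0.00015 and 0.000877. The index itself moves with day, and some of its genes are among those most like OTX2. By that choice the fit takes out change that OTX2 shares with them. It therefore cannot test the OTX2 rise, and the part of the index in the result was not tested. With the same covariate GSC on Day1 against Day0 was at log2 4.43 (adjusted p = 0.0607) and MIXL1 on Day2 against Day0 at log2 4.13 (adjusted p = 0.316).

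**Figure D2:**
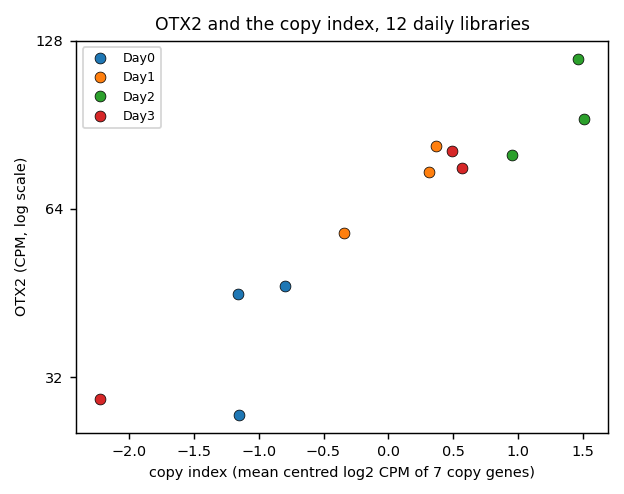
OTX2 level in CPM on a log axis against the copy gene index (mean centred log2 CPM of 7 genes) in the 12 daily libraries; each point is a library and its colour gives the day. The points run from the Day0 libraries at low index and 27.4 to 46.6 CPM to the Day2 libraries at high index and 79.8 to 119 CPM, and Day3 replicate 3 lies at the lowest index.

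HHEX, a homeodomain repressor, had 4.97, 0 and 0.172 CPM on Day0, 2.3, 1.18 and 1 CPM on Day1, 3.99, 0 and 0.556 CPM on Day2 and 0, 0 and 0 CPM on Day3. The 4 days held 39, 22, 16 and 0 counts, and 38 of the 39 on Day0 came from replicate 1. HHEX was called in no comparison of days. Day3 was at least 9.14-fold lower than Day2 (adjusted p = 0.0717) and at least 12-fold lower than Day0 (adjusted p = 0.0713) from 3 counts over the group, and DESeq2 gave adjusted p-values of 0.0296 and 0.0309 for these, the lowest of alternatives that reached 0.457 and 0.551. The difference of Day3 from Day0 rests on Day0 replicate 1, without which Day0 held 1 count and Day3 0, both under the floor (adjusted p = 0.551). Without Day0 replicate 1 the pooled Day1 level was 16.5 times that of Day0, on 22 counts against 1 (exact 95% counting interval 2.67 to 681). That interval holds counting error alone and follows the removal of nearly all Day0 counts. In edgeR no fit with 1 library left out called HHEX on Day1 against Day0 (lowest adjusted p = 0.395).

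**Figure D3:**
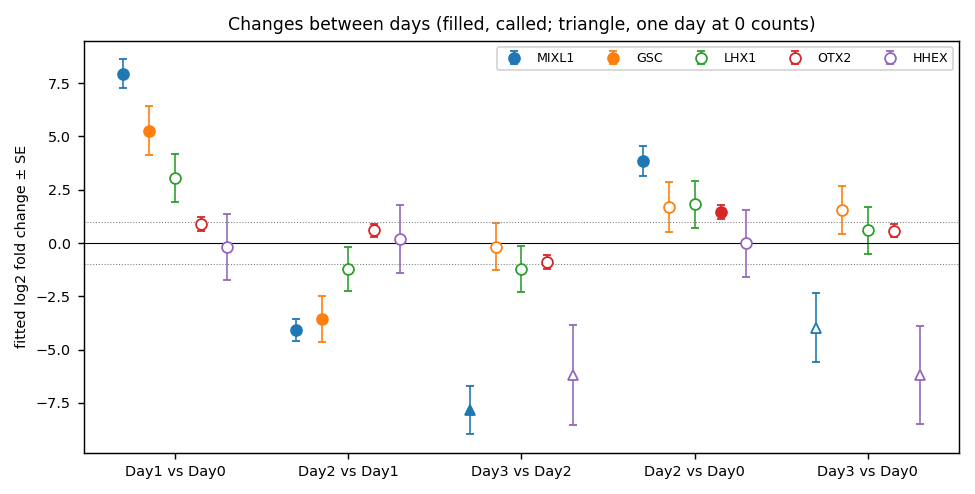
Log2 fold change with its SE for each gene in the 5 comparisons of days, from edgeR; filled symbols passed the test, and triangles mark comparisons in which 1 day had 0 counts, where the fitted value is no bound. MIXL1 and GSC lie at 7.95 and 5.28 for Day1 against Day0 and at -4.08 and -3.58 for Day2 against Day1, and OTX2 stays between -0.88 and 1.47.

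Levels of different genes were compared in TPM, the deposited unit that allows for transcript length. On Day1 MIXL1 led with 300 ± 47.9 TPM, followed by OTX2 at 77.6 ± 14.9 TPM and GSC at 74 ± 15.3 TPM, then LHX1 at 8.82 ± 0.681 TPM and HHEX at 1.9 ± 0.897 TPM (SD, n = 3 each). OTX2 and GSC did not differ beyond their spread, and each other step in that order was larger than the SDs. OTX2 led on each of the other days, with 45.8 ± 12.7 TPM on Day0, 103 ± 18.5 TPM on Day2 and 66.5 ± 29.4 TPM on Day3. MIXL1 was next on Day2 at 15.5 ± 6.42 TPM, ahead of GSC at 5.39 ± 2.69, LHX1 at 3.32 ± 2.76 and HHEX at 1.88 ± 2.67 TPM, the last 3 of which overlapped.

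Among themselves, MIXL1, GSC and LHX1 followed each other over the days. Pearson's r of log2 CPM over the 12 libraries, which share day and medium, was 0.87 for MIXL1 with GSC, 0.78 for MIXL1 with LHX1 and 0.87 for GSC with LHX1. OTX2 correlated with the other 4 at -0.02 to 0.42. The likest genes were sought among those with any change called and 10 CPM or more on some day (5190 or 5191 genes). For MIXL1 they were GNB4, a G protein beta subunit (r 0.99), ODC1, the first enzyme of polyamine synthesis, GABRB2, the homeobox gene EVX1, itself a streak gene, and GSTO1 (0.95). For GSC they were GCNT1 (0.94), GSTO1, the endoderm and heart factor GATA4, EIF3K and CA2. LHX1 was most like GSC, followed by ZNF259, TNFRSF21, MESDC1 and SLC25A32, and HHEX by the BMP receptor BMPR1A (0.86), EIF2C1, LDHA, TMOD3 and GTF2F2. The list for OTX2 held the ribosomal protein genes RPL30 (0.97) and RPL23A and the index genes FLJ44635, POTEE and RPL10L.

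The activin and nodal pathway feeds the streak genes, and 18 of its genes were followed, of which 16 were tested. On Day1 against Day0 1 was called higher and 1 lower, and its median log2 fold change was 0.13 against -0.01 over all genes. NODAL, the ligand itself, rose to 371 ± 28.7 CPM on Day1, against 21.8 ± 27.8 CPM on Day0 (log2 4.08 ± 0.65, adjusted p = 0.000725), and SKIL, which restrains SMAD proteins, fell to 123 ± 19.2 CPM, against 338 ± 44.3 CPM. The other Day0 libraries held 66 of the 478 Day0 counts of NODAL. Without Day0 replicate 1, 2 were called higher and 1 lower, with NODAL at log2 6.03 (adjusted p = 3.28e-07) and SKIL at log2 -1.36 (adjusted p = 0.00532). On Day2 against Day1 0 were called higher by edgeR (2 at an unadjusted p under 0.05) and 8 lower, with a median of -1.39 against -0.04 over all genes. NODAL was at 1.9 ± 1.18 CPM on Day2, its coreceptor TDGF1 at 10.8 ± 9.63 CPM, against 540 ± 67.7 CPM on Day1, and the feedback inhibitor SMAD7 at 1.02 ± 1.53 CPM, against 35.7 ± 1.78 CPM. The nodal antagonists LEFTY1 and LEFTY2, FOXH1 and SKIL fell as well. On Day3 against Day2 TDGF1 fell further, to 2.94 ± 1.81 CPM on Day3, against 10.8 ± 9.63 CPM on Day2 (adjusted p = 0.00592). Against Day0, 6 were called lower on Day2 and 7 on Day3, with 0 called higher on either day by edgeR (3 on Day2 and 2 on Day3 at an unadjusted p under 0.05). Of all genes tested 11.4% were called lower on Day2 against Day0 and 7.09% on Day3 against Day0. Without Day0 replicate 1, 5 were called lower on Day2, where NODAL was no longer called (adjusted p = 0.0616), and 6 lower and 1 higher on Day3.

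**Figure D4:**
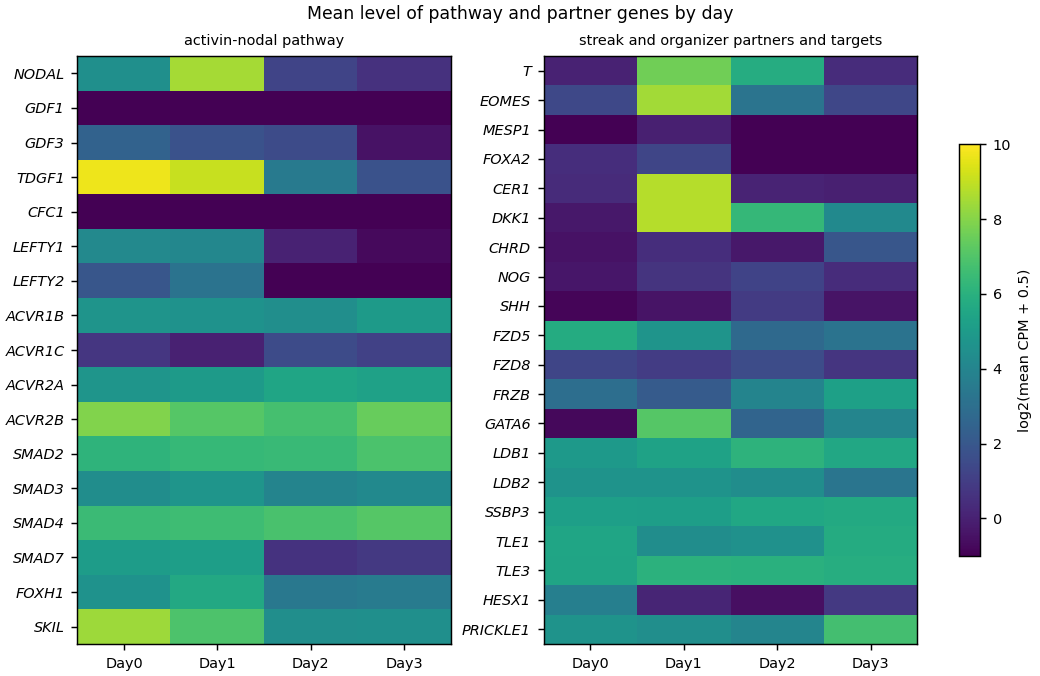
Heat map of the mean level on each day (n = 3) for genes of the activin-nodal list, left, and of the streak and organizer list, right; colour is log2(mean CPM + 0.5), from dark for low to yellow for high. NODAL, EOMES, CER1 and DKK1 are brightest on Day1, at 371, 356, 443 and 443 CPM, and TDGF1 and SKIL are brightest on Day0.

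Of 20 partners and targets of the streak and organizer, 16 were tested. On Day1 against Day0 5 were called higher and 2 lower, with a median log2 fold change of 0.23 against -0.01 over all genes. CER1, a secreted inhibitor of nodal and BMP, rose to 443 ± 95.5 CPM on Day1, against 0.779 ± 0.678 CPM on Day0, and the Wnt inhibitor DKK1 to 443 ± 31.1 CPM, against 0.307 ± 0.275 CPM. The T-box genes T and EOMES and the endoderm factor GATA6 were the others. The pair called lower was the corepressor TLE1 and HESX1, a homeobox repressor of the anterior embryo, which fell to 0.602 ± 0.876 CPM, against 13 ± 5.01 CPM. Without Day0 replicate 1, when 18 passed the filter, CER1, DKK1, T, EOMES and GATA6 were again called higher and HESX1 lower (adjusted p = 0.039), and TLE1 was not called (log2 -1.08, adjusted p = 0.05001). On Day2 against Day1 1 was called higher, the Wnt inhibitor FRZB, and 6 lower, with a median of -0.21 against -0.04. T fell least, to 55.8 ± 19.8 CPM on Day2, against 194 ± 43.8 CPM on Day1 (log2 -1.65), and CER1 most, to 0.571 ± 0.468 CPM, against 443 ± 95.5 CPM (log2 -9.37). Among the LHX1 cofactors, LDB1 was called higher on Day2 than on Day0 (68 ± 22.4 CPM against 30 ± 5.02 CPM, adjusted p = 0.00272, or 0.014 without Day0 replicate 1), and SSBP3 was called neither on Day1 against Day0 nor on Day2 against Day1.

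Close relatives of the members were scarce. OTX1 and GSC2 did not pass the filter on low counts, with at most 0.906 ± 0.886 CPM for OTX1, on Day3, and 2 counts for GSC2 over all days. CRX averaged 0.77 to 1.22 CPM over the days and LHX5 1.01 to 3.59 CPM, and neither was called in any comparison.

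Markers of other cell types in which OTX2, LHX1 or HHEX are active were read beside them. Of the anterior neural list 13 genes were followed, 7 were tested, and their summed level was 23.3 to 58.6 CPM on Day1, 70.9 to 120 CPM on Day2, 60.4 to 90.7 CPM on Day3 and 25.2 to 167 CPM on Day0. On Day2 against Day0 1 was called higher, PAX6, a factor of neural progenitors, at 54.9 ± 20.5 CPM, against 9.79 ± 7.47 CPM (adjusted p = 0.00378), and 1 lower, HESX1. Without Day0 replicate 1, 2 were called higher, with PAX6 at log2 2.33 (adjusted p = 0.0177), and 1 lower. RAX, a marker of the eye field and hypothalamus, was at 0 counts on all 4 days, and the part of such cells in the OTX2 result was not tested. The endoderm list of 10 genes summed to 52.4 to 68.5 CPM on Day1, 81.1 to 102 CPM on Day2, 43.6 to 83.7 CPM on Day3 and 62.1 to 90.1 CPM on Day0. SOX17, a defining endoderm factor, had 11 counts on Day1 and 0 on each other day, and FOXA2 averaged 1.98 ± 1.74 CPM on Day1 and was at 0 on Day2 and Day3. Of the 5 endoderm genes tested, on Day1 against Day0 1 was called higher and 1 lower, which were GATA4, at 12.9 ± 2.9 CPM, against 1 count on Day0, and SHISA2, at 2.77 ± 1.9 CPM, against 27.4 ± 17.6 CPM, and both were called without Day0 replicate 1 as well (adjusted p = 0.036 and 0.00702). On Day2 against Day1 CXCR4, a chemokine receptor, was called higher, at 81.7 ± 12.7 CPM, against 17 ± 2.05 CPM, and FOXA3 lower, at 0 counts, against 5 ± 2.74 CPM.

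The intermediate mesoderm list, whose tissue makes LHX1, had 8 genes, of which 4 were tested, and summed to 66.4 to 100 CPM on Day1, 111 to 188 CPM on Day2, 262 to 327 CPM on Day3 and 82.9 to 113 CPM on Day0. On Day1 against Day0 0 of the 4 were called in edgeR (1 at an unadjusted p under 0.05). In Day0 replicates 2 and 3 SALL1 alone averaged 80.3 CPM, where the 8 genes summed to 83.8 and 82.9 CPM. SALL1 was called higher on Day2 than on Day1 (adjusted p = 0.00405) and on Day3 than on Day0 (log2 1.60, adjusted p = 8.94e-05). On Day2 against Day0 1 of the 4 was called higher in edgeR (4 at an unadjusted p under 0.05). The list had a median log2 fold change of 2.86 there, against -0.12 over all genes. The called gene was WT1, a kidney and gonad factor, at 4.88 ± 3.41 CPM, against 0.6 ± 0.561 CPM (adjusted p = 0.0412). Without Day0 replicate 1 WT1 was not called (adjusted p = 0.133), and the list median was 2.76. On Day3 against Day2 WT1 was called lower (log2 -6.21, adjusted p = 0.00547). The endothelium and blood list, whose cells can make HHEX, had 12 genes, of which 4 were tested, and summed to 76.9 to 111 CPM on Day1, 42.6 to 96.7 CPM on Day2, 26 to 41.5 CPM on Day3 and 110 to 190 CPM on Day0. On Day2 against Day1 LMO2, a blood and vessel cofactor, was called higher, at 32.7 ± 21.8 CPM, against 2.69 ± 2.01 CPM, and the VEGF receptor gene KDR lower, at 17.7 ± 6.38 CPM, against 68.3 ± 12.4 CPM. ERG, an endothelial factor, was called lower on Day1, at 1 count, against 177 counts on Day0 (adjusted p = 0.0163), but not without Day0 replicate 1 (adjusted p = 0.065), and the blood factor GATA1 was at 0 counts on all 4 days. The part of such cells in the LHX1 and HHEX values was not tested.

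In the presomitic time course MIXL1 fell within the first hours, OTX2 rose over the same hours, and GSC, LHX1 and HHEX were low with no called change. The question here is how the genes move over the hours sampled for the HES7 oscillation named in the series title. Of the 13653 genes tested 28.9% differed among the 23 time points, and the same test called 2 of the 4 members that passed the filter, MIXL1 (adjusted p = 1.24e-06) and OTX2 (adjusted p = 0.000143). Without the 3 time points from 30 to 90 min neither was called (adjusted p = 0.116 for MIXL1 and 0.0936 for OTX2).

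**Figure D5:**
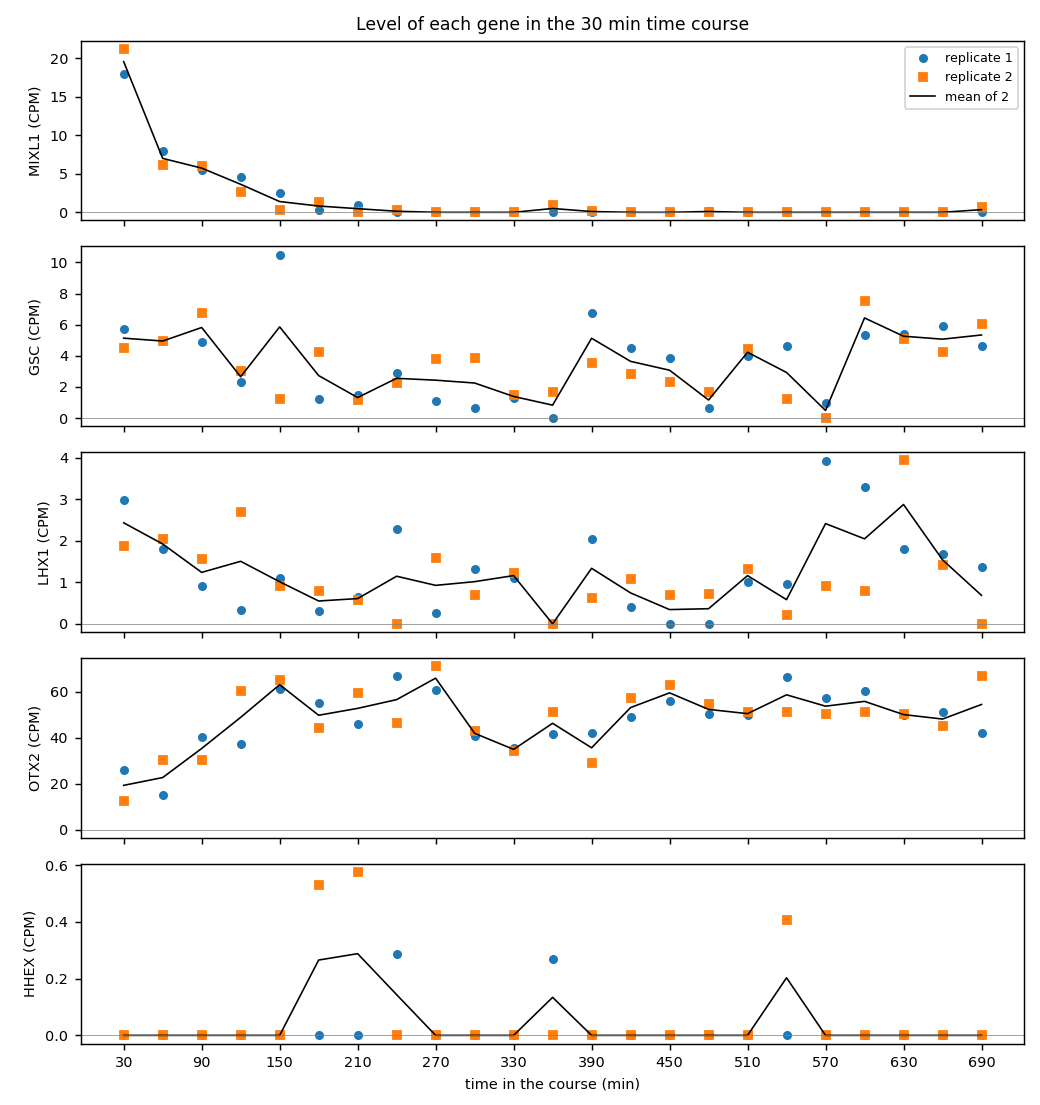
Level in CPM of each gene against time in min in the presomitic course; points are the 2 libraries of each time point and the line joins their means. MIXL1 starts at 19.5 CPM and is at or near 0 from 210 min, and OTX2 starts at 19.2 CPM and lies between 29 and 71.1 CPM from 210 min.

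MIXL1 had 17.9 and 21.2 CPM at 30 min, 6.09 and 7.9 CPM at 60 min, 5.49 and 5.98 CPM at 90 min, 2.68 and 4.59 CPM at 120 min, 0.305 and 2.49 CPM at 150 min and 0.303 and 1.33 CPM at 180 min. Neither library of any time point after 60 min reached the lower one at 60 min. From 210 to 690 min only 6 of 34 libraries had any MIXL1 count, the highest at 0.995 CPM.

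At 630 to 690 min MIXL1 had 0, 0 and 0.697 CPM as the lowest, median and highest of 6 libraries, against 5.49, 7 and 21.2 CPM at 30 to 90 min. It fell 112-fold on 3 counts against 310.7 (exact 95% counting interval 38.1 to 548), with an adjusted p of 6.54e-06, where 4.68% of all genes were called lower and 9.45% in all. At 120 to 180 min it was 5.35-fold lower than at 30 to 90 min (log2 -2.42 ± 0.79, adjusted p = 0.047), where 0.520% of all genes were called lower and 1.93% in all. This early call lay close to the threshold and was lost when any of 12 of the 46 libraries was left out, namely each library of 30 to 180 min except 150 min replicate 1, and 390 min replicate 2 (adjusted p = 0.0505 to 0.16). It was lost in DESeq2 too (adjusted p = 0.0568) and with the copy gene index as a covariate (log2 -1.04, adjusted p = 0.937), and the lowest of all alternatives was 3.11e-05. The call at 630 to 690 min was kept without any 1 of the 46 libraries.

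OTX2 had 12.5 and 26 CPM at 30 min, 15.1 and 30.2 CPM at 60 min, 30.2 and 40.4 CPM at 90 min, 37.4 and 60.3 CPM at 120 min and 61.2 and 64.9 CPM at 150 min. Its mean was 65.9 CPM at 270 min, 34.9 to 46.3 CPM from 300 to 390 min and 48.1 to 59.5 CPM from 420 min on. The copy gene index stood at 0.99 and 1.38 at 270 min, at -0.80 and -0.84 at 300 min and between -1.17 and -0.47 from 330 to 390 min, and its part in the lower OTX2 of these times was not tested. No library after 210 min was below 29 CPM, above both the 30 min libraries.

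At 630 to 690 min OTX2 had 42, 50 and 66.9 CPM as the lowest, median and highest of 6 libraries, against 12.5, 28.1 and 40.4 CPM at 30 to 90 min, with no overlap. It rose 2.08-fold (log2 1.06 ± 0.17, adjusted p = 3.42e-06), where 4.77% of all genes were called higher. Without 30 min replicate 2, 60 min replicate 1, 90 min replicate 2 or 690 min replicate 2 the change was at log2 0.90 to 0.99, under the size the call needs, with adjusted p-values of at most 9.86e-05. At 120 to 180 min OTX2 had 37.4, 57.8 and 64.9 CPM, and it rose 2.29-fold over 30 to 90 min (log2 1.19 ± 0.17, adjusted p = 3.01e-06), where 1.41% of all genes were called higher. Across the 46 libraries its r with the copy gene index was 0.43, and with the index as a covariate the rise was at log2 1.13 by 630 to 690 min (adjusted p = 5.4e-08) and at log2 0.67 by 120 to 180 min (adjusted p = 0.121). The summed anterior neural list was at 12.1 to 27.2 CPM at 630 to 690 min and 12.9 to 41.6 CPM at 30 to 90 min.

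GSC stayed detectable, at 0 to 10.5 CPM over the 46 libraries with a median of 3.82 CPM. It had 4.22, 5.26 and 6.04 CPM as the lowest, median and highest at 630 to 690 min, against 4.52, 4.95 and 6.76 CPM at 30 to 90 min, and the windows overlapped. The ratio of pooled counts was 1.03, with an exact 95% counting interval of 0.812 to 1.31, and the test gave a log2 change of 0.00 ± 0.56 to 2 decimals (adjusted p = 1). Between these windows the mean fell under 1 CPM at 360 min (0.829 CPM) and 570 min (0.489 CPM) and reached 5.87 CPM at 150 min and 6.43 CPM at 600 min. Differences among the time points were not called in edgeR (adjusted p = 0.169) and were called in limma on log2(TPM + 1) (adjusted p = 0.0278), and the alternatives ran from 0.0278 to 0.271.

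LHX1 lay at 0 to 3.93 CPM with a median of 0.981 CPM. Its pooled counts were 48 at 630 to 690 min and 49 at 30 to 90 min, a ratio of 0.903 (exact 95% counting interval 0.594 to 1.37), and no test of the course called it (adjusted p = 0.767 for any difference). HHEX had a count in 5 of 46 libraries, the highest at 0.576 CPM, and did not pass the filter on low counts.

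A rhythm of 300 min was tested with a cosine and a sine term beside a quadratic trend. It was called for 0 of the 4 members and for 0.132% of all genes, with adjusted p-values of 0.0641 for OTX2, 0.449 for MIXL1, 0.622 for LHX1 and 0.827 for GSC in edgeR, and 1 of the 4 had an unadjusted p under 0.05. Limma on log2(TPM + 1) called 0 of the 4 as well. HES7 itself was not called in edgeR (adjusted p = 0.406), and of 11 presomitic genes tested only LFNG was (adjusted p = 0.0334). A missing call in this test therefore does not show that a rhythm is absent. OTX2 crossed the threshold when any of 6 of the 46 libraries was left out, namely 210 min replicate 1, 270 min replicate 2, both of 480 min, 510 min replicate 2 and 540 min replicate 2 (adjusted p = 0.0363 to 0.0489), with a period of 330 min (adjusted p = 0.0101) and without the filter on low counts (adjusted p = 0.000107), and not with a period of 270 min (adjusted p = 0.606) or without the time points from 30 to 90 min (adjusted p = 0.19).

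Of the streak and organizer list 17 genes were tested in the course. At 630 to 690 min against 30 to 90 min 3 were called higher and 4 lower, with a median log2 change of 0.27 against -0.02 over all genes. T fell to 5.68 ± 1.85 CPM, against 111 ± 19.8 CPM (SD, n = 6), DKK1 to 17.2 ± 6.17 CPM, against 149 ± 68.5 CPM, and EOMES and LDB2 were lower too. CER1 moved the other way from MIXL1, rising to 61.6 ± 8.2 CPM, against 0.3 ± 0.243 CPM, together with TLE1 and PRICKLE1. By 120 to 180 min T and DKK1 were already lower, and MESP1, a factor of early mesoderm, was called higher on 15 counts against 0. Of the activin and nodal list 0 of 14 genes tested were called in either comparison by edgeR, against 6 at 630 to 690 min and 5 at 120 to 180 min at an unadjusted p under 0.05. The receptor ACVR2B had an adjusted p of 3.33e-09 at 630 to 690 min with a log2 change of 0.88, under the size the call needs. The list had a median of -0.06 there against -0.02 over all genes, and NODAL averaged 1.5 ± 2.04 CPM, against 0.753 ± 0.412 CPM at 30 to 90 min.

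Over the course MIXL1 and OTX2 correlated at r -0.65 across the 46 libraries, which share the time axis, and the other pairs at -0.15 to 0.40. The genes likest MIXL1, among 3830 that differed among the time points and reached 10 CPM, were TNFRSF11B (0.88), PLXNA2, ITGA5, CDH11 and T (0.87). OTX2 was most like TPM1, a tropomyosin (0.79), BTG1, UBE2R2, the FGF receptor FGFR2 and ING4. For GSC the list was led by C11orf48 (0.67), ahead of HOXA3, NOL7, KIF7 and FBXW7.

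Set beside the Day2 libraries, which carry the same cell type label, the course libraries of 30 min held more MIXL1 and less OTX2. MIXL1 averaged 19.5 CPM at 30 min and 4.87 ± 2.07 CPM on Day2, and OTX2 averaged 19.2 CPM at 30 min and 97.3 ± 20.1 CPM on Day2. At 60 and 90 min MIXL1 was at 5.49 to 7.9 CPM, which overlapped the 3.06 to 7.13 CPM of Day2. OTX2 reached at most 40.4 CPM from 30 to 90 min, against at least 79.8 CPM on Day2. The summed presomitic list was at 1431 to 1656 CPM at 30 to 90 min and 322 to 627 CPM on Day2. The 2 series were not tested against each other.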

How the data were processed

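RNA-seq libraries made with LM-seq were grouped by the day, time and replicate number in the labels. The authors deposited a table of expected counts (estimates, some with decimals) and a table of TPM, a length-scaled level. Per the submitters' processing notes the aligner was Bowtie 0.12.2 and the builds listed are hg19 and mm8. The sources used here do not give the counting program, its annotation, its use of strand or what mm8 was for. Symbols are those of the deposited tables, and printed positions belong to GRCh38.p14 alone.

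Counts were rounded and tested in edgeR 4.0.16 (quasi-likelihood, TMM, filterByExpr, R 4.3.3) over all daily or all course libraries, with Benjamini-Hochberg adjustment over every gene tested, 12765 and 13653 genes. Calls needed an adjusted p under 0.05 and, for a difference of 2 groups, a log2 fold change of at least 1 either way. F tests with 3 and 22 degrees of freedom asked for any difference, and the fit was checked on simulated counts. Against 0 counts a fold is a bound from 3 counts over the group, and ratios on few counts have exact 95% intervals, which, like the floors, take in no error but that of counting, as PCR copies cannot be told from molecules. Alternatives were RLE scaling, no filter, DESeq2 1.42.0, limma 3.58.1 on log2(TPM + 1) and log2(TPM + 0.1), fits of the 2 days compared, a replicate block, other rhythm settings, each library left out and, added after seeing the data, the copy gene index as a covariate and the gene lists without Day0 replicate 1. A fold on the log2(TPM + pseudocount) scale understates the change of low genes.

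The 5 genes are all described. Up to 6 called genes with the smallest adjusted p are named per list and comparison, with 4 paralogs, and for likeness the 5 highest Pearson correlations of log2 CPM (prior count 2); a few genes that this rule would name are not reported here. The members and the 10 lists (114 genes) were chosen with earlier results of these data known. Across genes the r between replicates was 0.875 to 0.962 over the days and 0.917 to 0.976 over the course, and no pair was close enough to be 1 library deposited again. Scaling by library size alone moves the median log2 fold change over all genes by -0.14 on Day2 against Day1, 0.22 on Day3 against Day2 and -0.17 on Day2 against Day0.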

Additional observations from a re-analysis of the deposited data

How the results depend on the processing

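Over the settings other than left-out libraries, 335 values of single members were recomputed, of which 285 kept their direction and their side of the threshold, 12 lost and 13 gained a call, and 25 changed sign. The calls of MIXL1 on Day1, Day2 and Day3 against the day before and those of OTX2 at 630 to 690 min held under each of them. Depth limits HHEX, LHX1 and late MIXL1, whose values rest on few counts. The cause of each change below was not tested.

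The sign changes were all in uncalled values. For HHEX on Day2 against Day0 (-0.02) they were 0.04 with RLE, 0.00 with no filter, 0.05 in DESeq2, 0.43 with the replicate block, and 0.04 and 0.29 in limma with pseudocounts of 1 and 0.1. HHEX on Day1 against Day0 (-0.20) was at 1.57 with the block and 0.42 and 1.63 in limma, and on Day2 against Day1 (0.19) at -1.14 with the block, -0.38 and -1.34 in limma and -0.16 with the copy gene index. LHX1 on Day3 against Day0 (0.60) was at -0.05 with the block, -0.06 and -0.74 in limma and -1.03 with the index. The index also turned OTX2 on Day2 against Day1 to -0.08, GSC and LHX1 on Day3 against Day2 to 0.84 and 0.20, and both on Day2 against Day0 to -0.05 and -1.23. GSC at 630 to 690 against 30 to 90 min was at 0.02 in both limma fits and with the index.

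Changes in the counts of called members included the following. LHX1 gained a call on Day1 against Day0 in DESeq2, in the fit of those days alone and with the replicate block, which also called it for any change. DESeq2 called 1 lower on Day2 against Day1, 2 lower on Day3 against Day2, 2 lower on Day3 against Day0 and 0 lower at 120 to 180 min. Limma with a pseudocount of 0.1 called 1 lower on Day2 against Day1. The block called 0 lower at 120 to 180 min. With the index 1 was called higher on Day1 against Day0, 0 on Day2 against Day0, and 0 higher and 0 lower at 120 to 180 min. A rhythm was called for 1 member with no filter, at 330 min and beside a linear trend, and any difference for 0 without the time points from 30 to 90 min.

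Over all genes, fits of only the days compared called 1139 on Day1 against Day0 (548 higher, 591 lower) and 1008 on Day3 against Day2 (699 and 309). Limma with pseudocounts of 1 and 0.1 called 292 and 273 higher and 1618 and 1605 lower on Day2 against Day1, 2066 and 1923 higher and 308 and 278 lower on Day3 against Day2, 691 and 657 higher and 2709 and 2710 lower on Day2 against Day0, and, with 1, 124 higher and 107 lower at 120 to 180 min. With the index 187 were lower on Day1 against Day0, 759 called on Day2 against Day1 (231 higher, 528 lower), 541 on Day3 against Day2 (374 and 167), 424 on Day2 against Day0 (198 and 226), 3592 for any change and 92 at 120 to 180 min (61 and 31). A rhythm was called for 18 genes, 3 with the index, 644 with no filter, 1 in each limma fit, 2 at 270 min, 615 at 330 min, 30 beside a linear trend and 7 without the time points from 30 to 90 min.

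With each library left out in turn (in the course with the filter and trended dispersion of all libraries), 435 to 826 genes were called on Day1 against Day0 (223 to 409 higher, 194 to 417 lower), 864 to 1834 on Day2 against Day1 (221 to 601, and 643 to 1233) and 964 to 2042 on Day3 against Day2 (678 to 1351, and 286 to 691). The lowest values came without Day1 replicate 1 or 2, Day0 replicate 2 and Day3 replicate 3. At 120 to 180 min 55 to 111 genes were lower, and a rhythm was called for 1 to 155. Members called lower were 1 to 2 on Day2 against Day1, 1 to 3 on Day3 against Day2 and 0 to 1 at 120 to 180 min, and members called higher were 0 to 1 on Day3 against Day0 and at 630 to 690 min, and 0 to 1 had a rhythm. LHX1 gained a call on Day1 against Day0 and for any change without Day3 replicate 1. GSC gained a call on Day2 against Day0 without Day0 replicate 1. Ranges that crossed 0 were -0.77 to 3.77, -2.15 to 0.78 and -2.35 to 3.96 for HHEX (Day1 against Day0, Day2 against Day1, Day2 against Day0), -2.67 to 0.39, -0.98 to 6.87 and -0.08 to 0.09 for GSC (Day3 against Day2, Day3 against Day0, 630 to 690 min), -4.44 to 0.00 for MIXL1 on Day3 against Day0, and -3.21 to 1.52 and -1.80 to 0.04 for LHX1 (Day3 against Day0, 630 to 690 min).

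Same-numbered libraries showed little shared deviation (r -0.11 to 0.17 over 18 daily pairs, -0.098 to 0.089 over 506 course pairs; 6 of 12 daily and 22 of 46 course libraries correlated best with their own number), so the number was not used to pair them in the main tests. Whether it marks a shared batch was not tested. With it as a block LHX1 was called on Day1 against Day0 (adjusted p = 0.0355) and for any change (adjusted p = 0.013), and MIXL1 at 120 to 180 min was not (adjusted p = 0.0553).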
